A study of Mus musculus with 12 samples.

Results

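The genes described here are 10 established targets of hypoxia-inducible factor (HIF) that act outside glycolysis and collagen modification: Bnip3, Bnip3l, Ddit4, Mxi1, Ndrg1, Kdm3a, Adm, Car9, Hilpda and Ankrd37. They were chosen by name from general knowledge of the HIF pathway, and they are 10 of the 54446 mouse genes in the count table. All 10 passed the filter on low counts, which left 13608 genes for testing. RNA-seq was performed on mouse embryonic fibroblasts, NIH3T3 cells in the study's methods, an immortalised line. All cells carried a doxycycline (dox)-inducible sequence for N-VEGF, the N-terminal stretch by which a longer VEGF isoform exceeds the usual one, or for NLS-N-VEGF, the same stretch joined to a nuclear localization sequence. The 4 groups of 3 libraries were NLS-N-VEGF cells without dox, NLS-N-VEGF cells with dox, N-VEGF cells without dox and N-VEGF cells with dox. No group here was placed under hypoxia, and no group received dox without carrying a construct, so the effect of dox itself and that of the induced protein cannot be told apart. The construct came to 5 to 12 counts per library without dox and 35 to 268 counts with dox.

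HIF is a transcription factor whose alpha subunit is degraded in oxygenated cells and accumulates when oxygen falls. It then binds short DNA motifs with the core ACGTG or GCGTG near its target genes. Outside glycolysis its targets adjust mitochondrial turnover, growth, pH, lipid storage, chromatin and signals to blood vessels, and several of them, Ddit4 and Ndrg1 among them, also respond to nutrient supply, growth factors and other stresses in fibroblasts.

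Each group held a library 1 and a library 2 whose labels share an ending, called suffix a below, and a second library 2 whose label has another ending, called suffix b. The labels do not say what these endings mark. Values per library are given in that order. Total counts lay between 13549331 and 18982127 per library, and the smallest level this depth could show, 3 counts of the total, was 0.158 to 0.221 counts per 1000000 counts of a library (CPM). Levels are CPM on library sizes scaled by edgeR, and intervals and floors cover counting error only. All 8 fibroblast markers were present, summing to 11200 to 14000 CPM per library. The markers of epithelial cells summed to 0.88 to 1.87 CPM, those of endothelial cells to 2.39 to 4.49 CPM (mostly Cdh5) and those of leukocytes to 2.87 to 6.18 CPM (mostly Cd68), with at most 1 count of Epcam and Itgam, 2 counts of Krt18 and Emcn and 5 counts of Ptprc in any library. Library 1 of N-VEGF cells without dox stood apart, with the fewest genes detected (19976, against up to 22889), and results that rest on it are given with and without it. The labels call the libraries triplicates but do not say whether they came from separate cultures, so p-values measure the spread between these libraries, which may be technical.

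The core HIF motifs were looked up first, since members that moved together in the comparisons could be read beside their promoters. RefSeq promoter windows (GRCm38.p6, 250 bases before to 50 after each start) were matched for 8 of the 10 genes, all but Bnip3l and Ndrg1. ACGTG or GCGTG, read on both strands, stood in at least 1 window of all 8 genes, against 46.7% of 26994 genes. A match stood in 10 of their 13 windows (76.9%), against 43.8% of 32817 windows of all genes. The genes were chosen as known HIF targets, so a higher share is no independent result. The match nearest to a start is printed for 5 genes. Adm was taken because it was lower with dox in both populations, though not significantly so in edgeR with group means. Ddit4, Mxi1 and Bnip3 were taken because they moved together with the suffix, and Hilpda because it did not move with them. RefSeq gave 2 windows for Hilpda and 3 for Mxi1. The printed sites of these 2 genes lie inside the gene (chr6:29272488-29275446 and chr19:53310506-53375810), before an alternative start downstream of its first base. The sequences read 5′ to 3′ on the strand of the gene, with the motif in capitals (CACGC is GCGTG read on the other strand).
Adm, 54 bases before the start, chr7:110627592-110627618, plus strand: gcaaatctgacCACGCccaccgtccgc
Ddit4, 115 bases before the start, chr10:59951870-59951896, minus strand: acctggaggggGCGTGgcctcgccggg
Mxi1, 25 bases before the start, chr19:53329659-53329685, plus strand: gcggatgatcaACGTGcagcgcctgct
Bnip3, 35 bases before the start, chr7:138909526-138909552, minus strand: gctccgccgccGCGTGcgtcccgcccc
Hilpda, 8 bases before the start, chr6:29272607-29272633, plus strand: aggttcggtacGCGTGcgcagtctccg
Further upstream, the Bnip3 window held an ACGTG that overlaps CACGTG, a motif shared by many other factors and present in 7.15% of all windows. A match is a description of the letters and not of binding.

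Compared per kilobase of exon, Ddit4 had the highest level of the 10 genes, with a median of 41.2 CPM per kb over the 12 libraries. Bnip3l (28.0), Ndrg1 (25.1) and Hilpda (21.0 CPM per kb) followed. That first place came from the libraries of suffix a, where the median of Ddit4 was 43.2 and that of Bnip3l 28.7 CPM per kb. In suffix b the medians were 21.5 for Hilpda, 21.0 for Ddit4 and 19.95 CPM per kb for Bnip3l, and Ddit4 was below Hilpda in both libraries with dox. Bnip3 had a median of 12.1, Kdm3a 9.55, Adm 7.85 and Mxi1 6.80 CPM per kb. Ankrd37 (2.89) and Car9 (0.583 CPM per kb) were the lowest. The ranges over libraries separated in only 3 of the 9 neighbouring steps of this order, Hilpda above Bnip3, Mxi1 above Ankrd37 and Ankrd37 above Car9. In the other 6 steps the ranges overlapped, and Ndrg1, for example, was above Hilpda in 8 of 12 libraries. Whether reads were counted by strand is not given in the sources used here. The antisense exons of other genes covered 26.4% of the exon bases of Ankrd37, 22.3% of Bnip3, 9.29% of Car9, 8.43% of Ndrg1 and 2.84% of Mxi1, so these levels are uncertain to that extent.

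**Figure D1:**
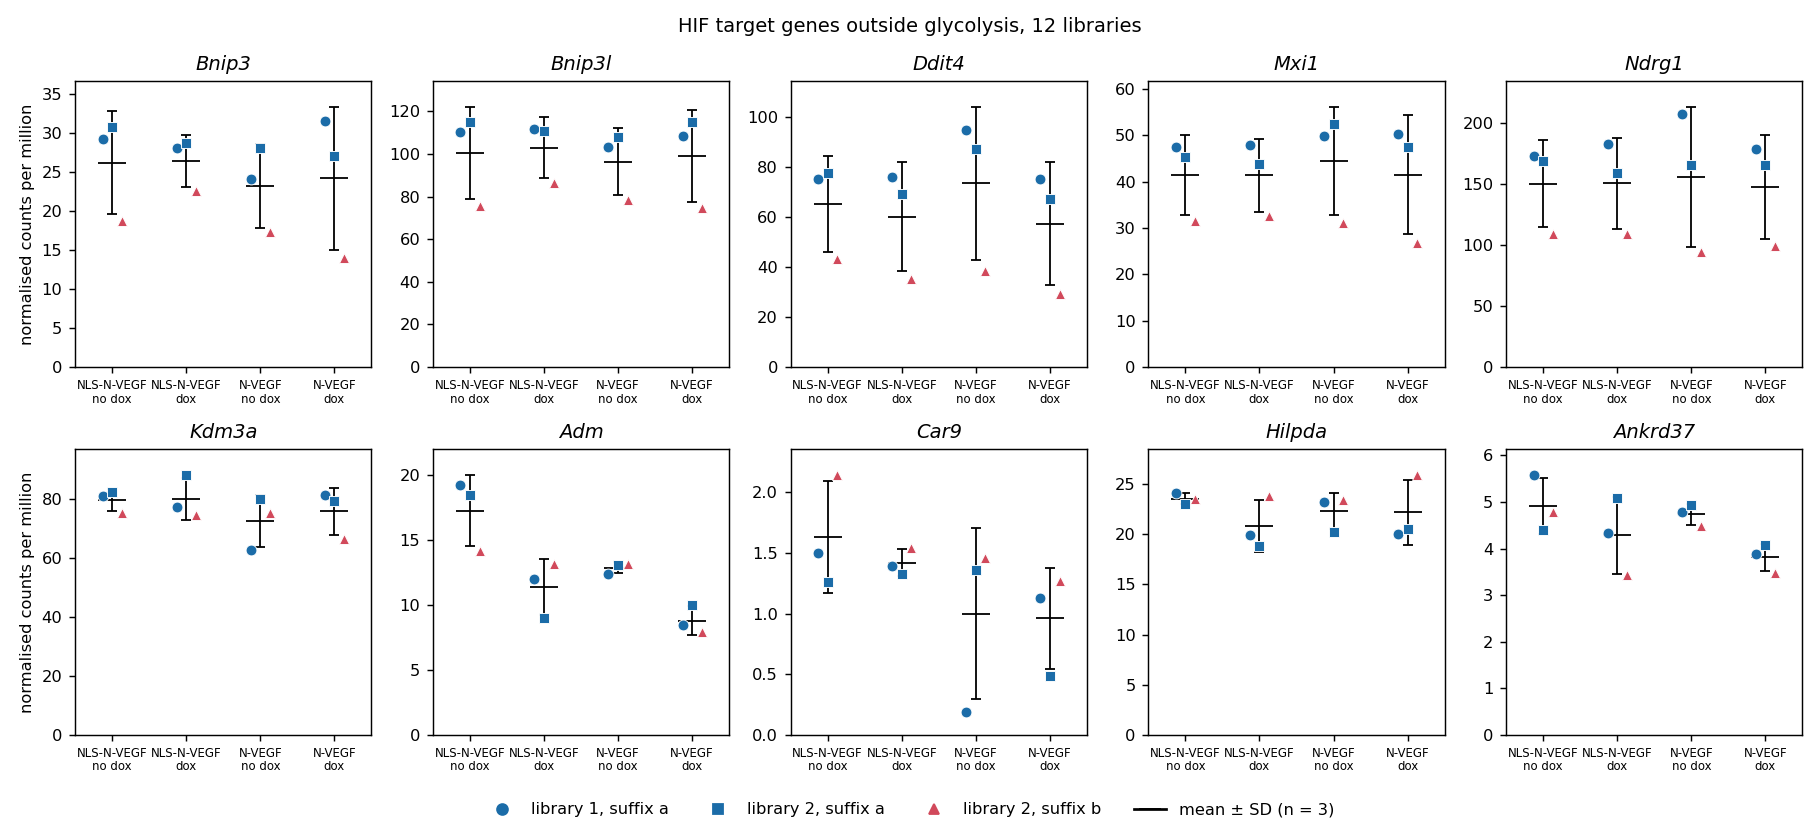
Normalised CPM of the 10 genes in each of the 12 libraries, by group, with a panel and an axis from 0 for each gene; symbols and colours show the library number and suffix, and the black bars are the mean ± SD of 3 libraries. The red triangles (suffix b) lie below every blue symbol for Bnip3, Bnip3l, Ddit4, Mxi1 and Ndrg1, while Adm is lower in the groups with dox.

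The first comparison asked whether these genes, known to be induced by hypoxia, differed when NLS-N-VEGF or N-VEGF was induced with dox. Adm was lower with dox in both populations, while most of the others had values close to 0. With libraries paired by number and suffix, Adm was the only member with 1 direction in 6 of 6 pairs. Within suffix a the number matched libraries only weakly. With the numbers of the dox-treated NLS-N-VEGF libraries of suffix a swapped, Ddit4 and Ankrd37 were also lower with dox in every pair. In the edgeR test with group means, 0 of the 10 members were called (adjusted p under 0.05) in NLS-N-VEGF cells, where 0.022% of all genes tested were called, in N-VEGF cells (0.0367%) or in the mean of both populations (0.0588%). At an unadjusted p under 0.05, 1 member stood out in each of the 3 comparisons, and it was Adm each time. DESeq2 called Adm in the mean of both populations, where it called 0.154% of all genes. It called no member in the single populations, where Car9 in NLS-N-VEGF cells received no adjusted p. In NLS-N-VEGF cells 4 of 10 members were higher and 6 lower with dox, and in N-VEGF cells 3 were higher and 7 lower (4 and 6 without the library that stood apart). The medians over the 10 were -0.06 and -0.08 on the log2 scale, beside 0.00018 and 0.0022 over all genes, and that in N-VEGF cells was -0.02 without that library.

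Adm (chr7:110627661-110629820, plus strand) encodes adrenomedullin, a secreted peptide that dilates vessels and acts on endothelial cells. In NLS-N-VEGF cells its level was 19.2, 18.5 and 14.1 CPM without dox, against 12, 8.98 and 13.2 CPM with dox. All 3 libraries with dox lay below all 3 without dox, although the libraries of suffix b were close to each other. In N-VEGF cells the level was 12.4, 13.1 and 13.2 CPM without dox, against 8.5, 10 and 7.90 CPM with dox, again without overlap. How many of all genes separated in this way, or kept 1 direction in 6 of 6 pairs, was not counted. The mean level of Adm fell from 17.3 ± 2.74 to 11.4 ± 2.18 CPM and from 12.9 ± 0.43 to 8.81 ± 1.1 CPM (SD, n = 3). Adm was thus lower with dox in 6 of 6 pairs of libraries with the same number and suffix, by log2 ratios of -0.68, -1.04 and -0.10 in NLS-N-VEGF cells and of -0.54, -0.38 and -0.74 in N-VEGF cells.

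The fitted log2 fold change of Adm was -0.60 (SE 0.16) in NLS-N-VEGF cells, -0.54 (SE 0.16) in N-VEGF cells and -0.57 (SE 0.12) in the mean of both, a level 1.48 times lower with dox. The last had an adjusted p of 0.349 in edgeR with group means, which is not a call. With the replicate block, which compares libraries of the same number and suffix, the log2 fold change was -0.57 (SE 0.10) and the adjusted p 0.0158. In that fit, 0.294% of all genes were called lower with dox. Adm was called in 10 of the 31 alternatives, among them DESeq2 (adjusted p = 0.00928) and the libraries of suffix a alone (-0.65, adjusted p = 0.0167). These 2 fits called 0.154% and 1.01% of all genes. Adm was called in none of the 12 fits that left out 1 library without a block (adjusted p 0.147 to 1), and in 5 of the 12 that did so with the block (0.0028 to 0.0804). Those 12 block fits called 0.222% to 1.46% of all genes. The log2 fold change of Adm lay between -0.66 and -0.48 in all 31. The effect of dox in NLS-N-VEGF cells minus that in N-VEGF cells was -0.05 (SE 0.23) for Adm and was not called. The log2 fold change with dox in suffix b minus that in suffix a was 0.22 (SE 0.18), a smaller fall in suffix b, and this was not called either.

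**Figure D2:**
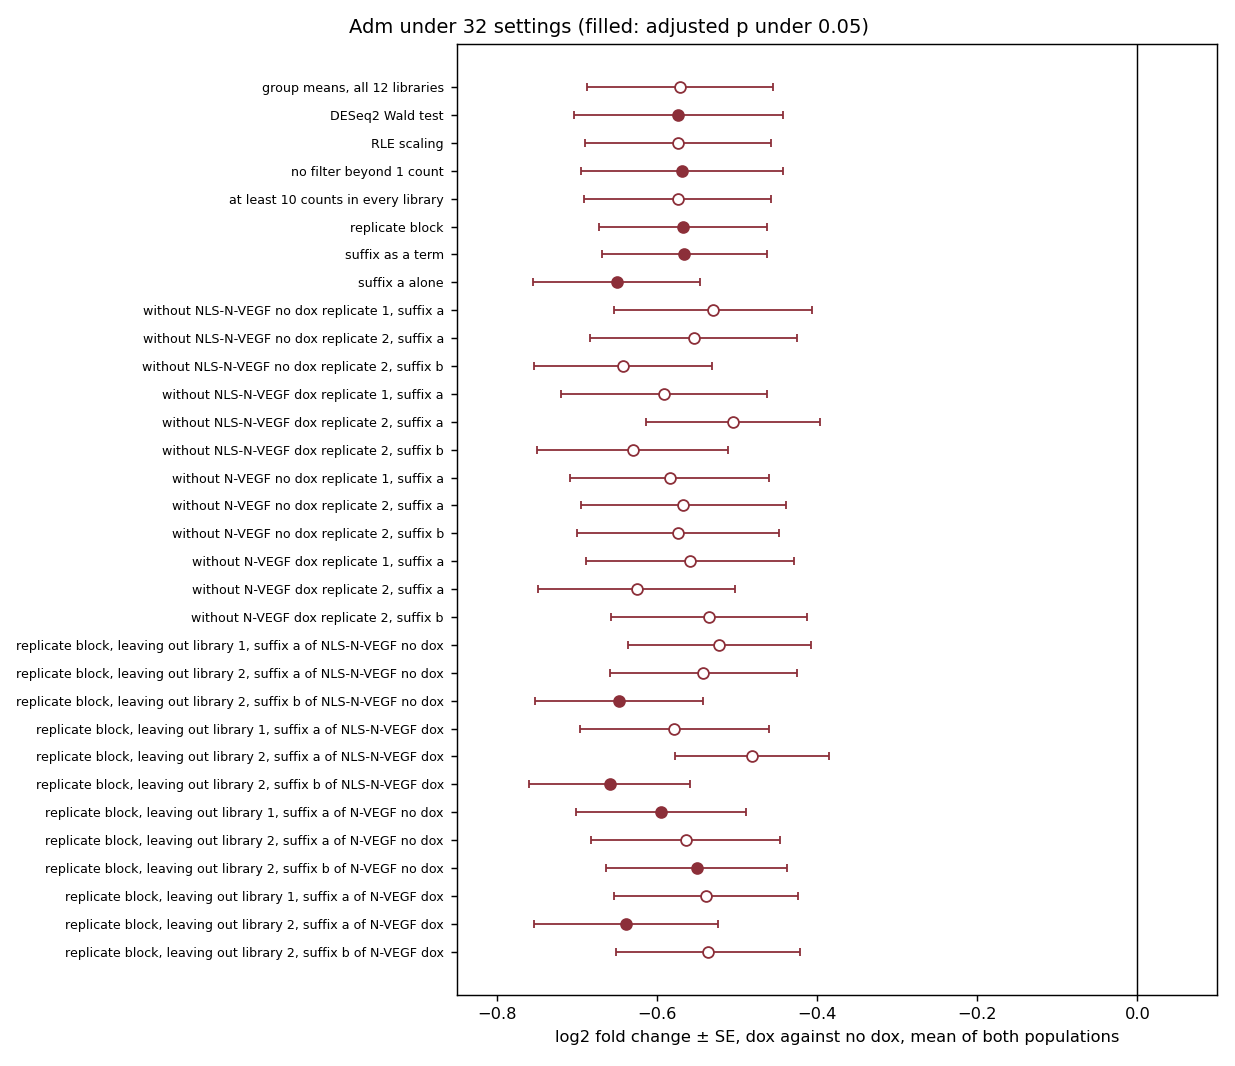
Log2 fold change of Adm, dox against no dox as the mean of both populations, ± SE, under the 32 settings (1 per row); filled points had an adjusted p under 0.05. All points lie between -0.66 and -0.48, and which of them are filled depends on the setting.

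Ddit4 (chr10:59949669-59951834, minus strand), whose product REDD1 restrains the growth kinase complex mTORC1, was lower with dox in 5 of 6 pairs. Its level in N-VEGF cells was 94.6, 87.1 and 38.4 CPM without dox, against 75.2, 67.2 and 29.3 CPM with dox, so that each library was below its partner, by log2 ratios of -0.33, -0.38 and -0.39. In NLS-N-VEGF cells it was 75.1, 77.5 and 43.2 CPM without dox, against 75.8, 69.0 and 35.2 CPM with dox, with log2 ratios of 0.01, -0.17 and -0.29. The groups overlapped widely, since the library of suffix b was far below the others in each. The mean log2 fold change was -0.24 (SE 0.29) and was not called. In N-VEGF cells it was -0.36 (SE 0.41) with group means and -0.13 (SE 0.47) without the library that stood apart, which leaves that group with unequal suffixes. With the replicate block it was -0.25 (SE 0.06, adjusted p = 0.108), and it was called in 1 fit, the block that left out, from N-VEGF cells without dox, the library of suffix b (-0.29, adjusted p = 0.031). That fit called 1.24% of all genes.

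Ankrd37 (chr8:45996902-46005707, minus strand), an ankyrin repeat protein gene, was also lower with dox in 5 of 6 pairs. Its level was 5.58, 4.40 and 4.78 CPM without, against 4.34, 5.08 and 3.43 CPM with dox in NLS-N-VEGF cells, where the groups overlapped. In N-VEGF cells it was 4.78, 4.93 and 4.49 CPM without, against 3.87, 4.07 and 3.48 CPM with dox, without overlap. The share of all genes without such overlap was not counted. The mean log2 fold change of -0.26 (SE 0.13) was not called in edgeR (adjusted p = 1), and 52 to 97 counts per library stood behind these levels.

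Car9 (chr4:43506966-43513729, plus strand) encodes carbonic anhydrase 9, a surface enzyme that regulates pH. It was barely above the floor, at 3 to 30 counts per library. In N-VEGF cells it was 0.189, 1.35 and 1.46 CPM without dox, against 1.12, 0.488 and 1.27 CPM with dox, and its log2 ratios of 2.58, -1.47 and -0.20 had no common direction. The first of them rests on 3 counts in the library that stood apart (95% Wilson interval of its unscaled level, 0.0612 to 0.529 CPM). The log2 fold change in N-VEGF cells was -0.08 (SE 0.55) with that library and -0.56 (SE 0.38) without it, so no difference was detectable at this depth. In NLS-N-VEGF cells Car9 was 1.5, 1.26 and 2.14 CPM without dox, against 1.39, 1.32 and 1.54 CPM with dox.

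The other 6 genes had mean dox effects within 0.10 of 0 on the log2 scale, and none was called. The mitophagy receptors Bnip3 (0.04, SE 0.20) and Bnip3l (0.04, SE 0.14), which mark mitochondria for removal, were higher in 2 and 4 of 6 pairs. The largest ratio of Bnip3 (0.39, in N-VEGF cells) rests on the library that stood apart, without which its mean effect was 0.05 (SE 0.22). Mxi1 (-0.05, SE 0.18), a MAX partner that opposes MYC, and the stress-response gene Ndrg1 (-0.04, SE 0.21) were each higher in 3 and lower in 3. Without that library the mean effect of Ndrg1 was 0.09 (SE 0.22), and in N-VEGF cells its log2 fold change went from -0.08 to 0.185 (SE 0.33). Kdm3a (0.03, SE 0.08), a histone demethylase, was lower in 4 of 6 pairs, its largest ratio being that of the library that stood apart, without which its log2 fold change in N-VEGF cells went from 0.06 to -0.03. Hilpda (-0.09, SE 0.09), a lipid droplet protein that slows fat breakdown, was higher in 3 of 6 pairs. These standard errors bound the effects loosely for Ndrg1 and Bnip3 and more tightly for Kdm3a and Hilpda. With the block, the standard errors in the single populations fell, for Ndrg1 in NLS-N-VEGF cells from 0.30 to 0.08, and none of these 6 genes was called.

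**Figure D3:**
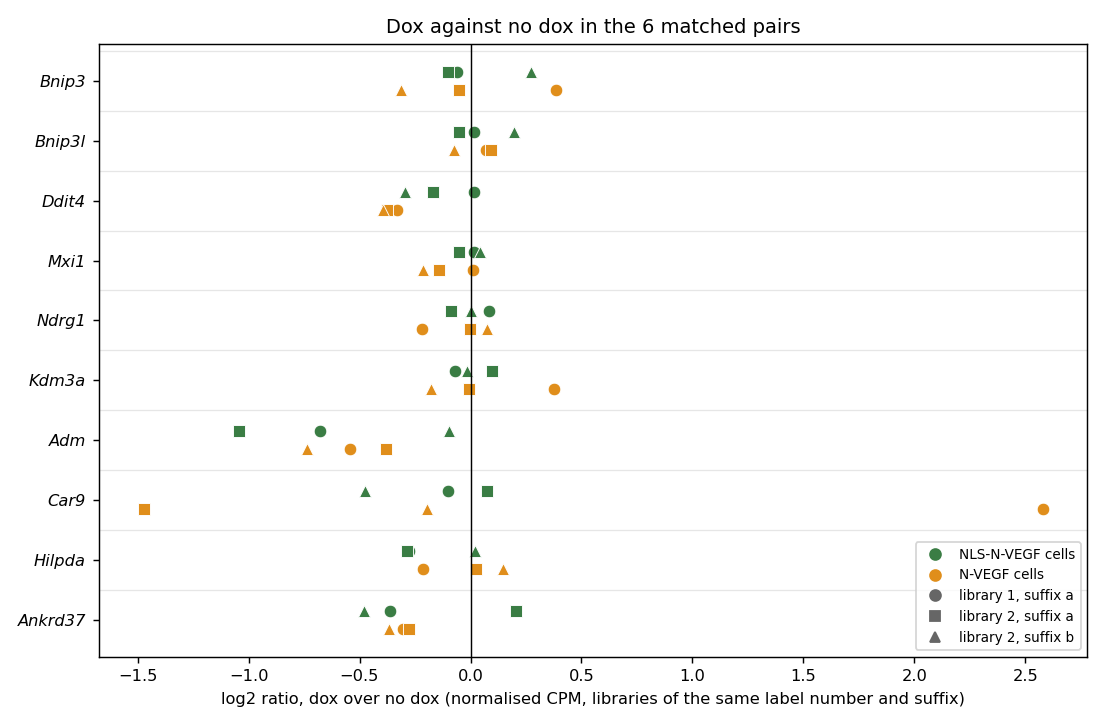
Log2 ratio of normalised CPM, dox over no dox, for each of the 10 genes in the 6 pairs of libraries with the same number and suffix; colours show the cell population and symbols the library. Adm lies left of 0 in 6 of 6 pairs, Ddit4 and Ankrd37 in 5 of 6, and the Car9 point at 2.58 rests on 3 counts.

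The second comparison set NLS-N-VEGF cells against N-VEGF cells. The constructs were carried by separately infected cells, so the localization sequence and other differences between the populations cannot be told apart. With dox, 0 of the 10 genes were called between the populations, and 0% of all genes were (160 genes had an unadjusted p under 0.05). Without dox, 0 of the 10 were called, again beside 0% of all genes (82 such genes). At an unadjusted p under 0.05, 1 member stood out with dox and 1 without, Adm in both, and DESeq2 called none of the 10 in either. Adm had the higher level in NLS-N-VEGF cells, by 0.37 (SE 0.17) with dox and by 0.43 (SE 0.16) without dox on the log2 scale. The levels with dox overlapped, since library 2 of suffix a had 8.98 CPM in NLS-N-VEGF cells and 10 CPM in N-VEGF cells. The groups without dox did not overlap, with 14.1 CPM as the lowest level in NLS-N-VEGF cells and 13.2 CPM as the highest in N-VEGF cells. For how many of all genes this held was not counted. The direction was thus the same with and without dox.

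Car9 differed in the same direction by 0.58 (SE 0.54) with dox and by 0.69 (SE 0.53) without dox, neither called. The latter was 0.21 (SE 0.37) without the library that stood apart. Across the 10 genes, 8 were higher in NLS-N-VEGF cells with dox and 7 without, with medians of 0.07 and 0.07 beside -0.0029 and -0.0046 over all genes. Without the library that stood apart, 9 of the 10 were higher in the groups without dox, with a median of 0.11. The difference of the dox effects between the populations was called for 0 of 10 genes and for 0% of all genes (116 at an unadjusted p under 0.05), with no member at an unadjusted p under 0.05 and none called by DESeq2. Its values ran from -0.17 (SE 0.18) for Hilpda to 0.23 (SE 0.58) for Ddit4, and without the library that stood apart from -0.20 (SE 0.18) for Hilpda to 0.37 (SE 0.51) for Car9. With dox, the construct had 121, 149 and 268 counts in N-VEGF cells against 48, 35 and 173 where the localization sequence was present, so its amount and the localization sequence cannot be told apart in the contrasts that include dox.

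The third comparison set the 4 libraries of suffix b against the 8 of suffix a, with group in the model. Of the 10, 5 were called lower in suffix b, where 23.5% of all genes tested were called lower, and 1 was called higher, where 22.2% were. The 5 were the mitophagy receptors Bnip3 and Bnip3l and the growth-restraining or stress-responsive genes Ddit4, Mxi1 and Ndrg1. In each, all 4 libraries of suffix b lay below all 8 of suffix a, which held for 14.9% of all genes tested. By sign, called or not, 8 of the 10 were lower and 2 higher, beside 50.7% of all genes that were higher. The median over the 10 members was -0.34 on the log2 scale, beside 0.0054 over all genes. What the suffix stands for was not given, and the part of any condition that changed with it was not tested.

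Ddit4 differed most. Its level was 67.2 to 94.6 CPM, with a median of 75.5 CPM, in the 8 libraries of suffix a, and 43.2, 35.2, 38.4 and 29.3 CPM in the 4 libraries of suffix b (NLS-N-VEGF without and with dox, then N-VEGF without and with dox). The log2 difference was -1.09 (SE 0.07, edgeR adjusted p = 3.66e-08), a level 2.13 times lower, and it ran from -0.82 to -1.28 in the single groups. For comparison, the mean effect of dox on the same gene was -0.24 on that scale.

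Ndrg1 (chr15:66929318-66969640, minus strand), induced by hypoxia, metals and differentiation, was at 159.5 to 207.7 CPM (median 171.1) in suffix a and at 109.3, 109.6, 94.2 and 99.3 CPM in suffix b. Its log2 difference was -0.77 (SE 0.07, adjusted p = 1.01e-06). Mxi1 (chr19:53310506-53375810, plus strand) was at 43.7 to 52.4 CPM (median 47.7) and at 31.6, 32.6, 31.1 and 26.9 CPM, a difference of -0.65 (SE 0.06, adjusted p = 1.49e-06). Both genes were lower in all 4 groups, and the difference was larger in size in both groups of N-VEGF cells than in those of NLS-N-VEGF cells, which was not tested.

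Bnip3 (chr7:138890836-138909519, minus strand) was at 24.2 to 31.6 CPM (median 28.4) in suffix a and at 18.7, 22.6, 17.4 and 14 CPM in suffix b, a log2 difference of -0.65 (SE 0.09, adjusted p = 4.43e-05). Its homologue Bnip3l (chr14:66985239-67008877, minus strand) encodes the mitophagy receptor NIX. Bnip3l was at 103.1 to 115 CPM (median 110.7) and at 75.5, 86.5, 78.5 and 74.5 CPM, a difference of -0.49 (SE 0.05, edgeR adjusted p = 3.3e-06). In both, dox-treated NLS-N-VEGF cells had the highest level of the 4 libraries of suffix b. All 5 genes were called in 16 of 16 alternatives, each library left out in turn included.

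Hilpda (chr6:29272488-29275446, plus strand) was the only member called higher in suffix b, by 0.19 (SE 0.07, edgeR adjusted p = 0.0369). It had 18.8 to 24.2 CPM (median 20.4) in the 8 libraries and 23.5, 23.8, 23.4 and 25.9 CPM in the 4. The sets overlapped, and the call was made in only 5 of 16 alternatives (log2 difference 0.13 to 0.24, adjusted p 0.00843 to 0.208); DESeq2 gave 0.0634. The remaining 4 genes were not called. Kdm3a (chr6:71588972-71632990, minus strand) differed by -0.12 (SE 0.07, adjusted p = 0.186), and by -0.16 (adjusted p = 0.0069) without library 1 of N-VEGF cells without dox, the library that stood apart. Adm differed by -0.06 (SE 0.11), Ankrd37 by -0.20 (SE 0.12) and Car9 by 0.58 (SE 0.30). Adm was higher in suffix b in 2 groups and lower in 2. Car9 was lower in 0 of the 4 groups, and Hilpda in 1.

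The effect of dox in suffix b minus that in suffix a was called for 0 of the 10 genes in edgeR and for 0% of all genes (1142 at an unadjusted p under 0.05), and DESeq2 called 11 genes. DESeq2 gave an adjusted p to 2791 of the 13608 genes in this comparison and to 2 of the 10 members, Bnip3l and Ndrg1, neither of which was called. At an unadjusted p under 0.05, 1 member stood out, Hilpda (0.27, SE 0.12). In this comparison suffix b has 1 library per group and lends no spread of its own. Without library 2 of suffix a of N-VEGF cells without dox, Hilpda (0.32, adjusted p = 0.0384) and Kdm3a (-0.28, adjusted p = 0.0207) were called, in a fit that called 2234 of 13953 genes (16.01%).

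**Figure D4:**
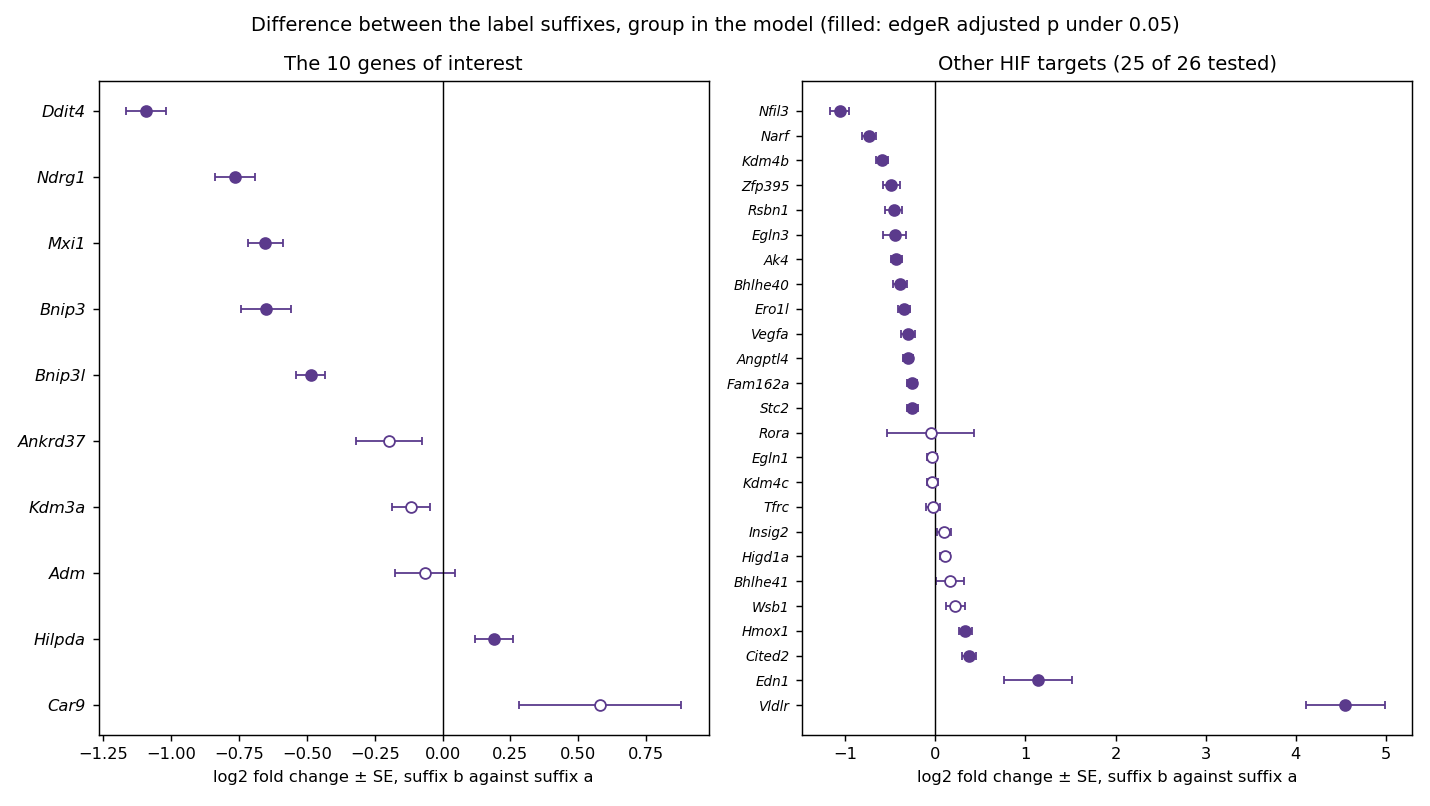
Log2 fold change ± SE of suffix b against suffix a, with group in the model, for the 10 genes (left) and for 25 of the 26 other HIF targets tested (right), on separate axes; filled points had an edgeR adjusted p under 0.05. On the left, 5 genes lie between -1.09 and -0.49 and are filled; on the right, 13 filled genes lie below 0 and 4 above it.

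A list of 30 other HIF targets outside glycolysis and collagen modification was read beside the 10, and 26 of them passed the filter. In edgeR with group means, 0 of the 26 were called in the dox comparisons of NLS-N-VEGF cells, of N-VEGF cells or of both, with 1 at an unadjusted p under 0.05 in each, and 0 between the populations. Their medians with dox were 0.03 in NLS-N-VEGF cells and 0.0044 in N-VEGF cells. Vegfa (chr17:46016993-46032369, minus strand), the reference HIF target and the gene from which N-VEGF derives, was 88.7, 87.5 and 84.9 CPM without, against 130.4, 120.9 and 79.6 CPM with dox in NLS-N-VEGF cells. It was higher with dox in both pairs of suffix a and lower in that of suffix b, with a log2 fold change of 0.34 (SE 0.16) that was not called. In N-VEGF cells its log2 fold change was 0.04 (SE 0.16). Whether counts of the construct fell on this gene was not tested.

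Angptl4, a secreted inhibitor of lipoprotein lipase, was singled out after its values were seen. It was higher with dox in 6 of 6 pairs, by log2 ratios of 0.20 to 0.75, a trait whose share over all genes was not counted. Its level in N-VEGF cells was 82.5, 72.8 and 57.2 CPM without, against 117.5, 117.3 and 96.3 CPM with dox, and in NLS-N-VEGF cells it was 85.9, 84.1 and 71.1 CPM without, against 98.6, 111 and 90.2 CPM with dox. The log2 fold change in N-VEGF cells (0.65, SE 0.08, adjusted p = 0.000451) and that in the mean of both (0.48, SE 0.06, adjusted p = 0.000193) were called with the replicate block. In these block comparisons, 0.0808% and 0.272% of all genes were called higher with dox. With group means, the mean effect was 0.48 (SE 0.10, adjusted p = 0.399) and was not called, while DESeq2 called it (adjusted p = 0.0098, 0.154% of all genes called). With the block it was called in 12 of 12 fits that left out a library (0.222% to 1.46% of all genes called), and without a block in 0 of 12 (adjusted p 0.168 to 1). Among the HIF targets read here, Adm and Angptl4 therefore had opposite directions with dox.

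By suffix, 13 of the 26 other HIF targets were called lower and 5 called higher in suffix b, beside 23.5% and 22.2% of all genes. By sign, called or not, 17 were lower and 9 higher. Their median was -0.15, beside 0.0054 over all genes. One of the 5 called higher, Vldlr, passed the filter only through suffix b and could therefore only enter as higher. Without it, 13 of 25 were called lower and 4 called higher, with a median over the 25 of -0.25. The lower genes included Nfil3 (-1.06, SE 0.11), a transcription factor of immune and circadian programmes, Narf (-0.73, SE 0.08), Kdm4b (-0.59, SE 0.07), a histone demethylase, and Zfp395 (-0.49, SE 0.09). Vegfa was lower as well (-0.30, SE 0.08, adjusted p = 0.00533). The higher ones included Cited2 (0.37, SE 0.08), which competes with HIF for its coactivator. Edn1, the vasoconstrictor endothelin, was higher from low levels (0.123 to 0.663 against 0.214 to 1.27 CPM). Vldlr, a lipoprotein receptor, was at 0 to 0.0736 CPM, under the floor, in the 8 libraries of suffix a and at 0.785 to 1.27 CPM in the 4 of suffix b, in all 4 groups.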

How the data were processed

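RNA-seq libraries (TruSeq RNA v2, single reads) of 4 groups of 3 were analysed, grouped by GEO's labels alone. Per the submitters' processing notes, reads were trimmed with Trim Galore and cutadapt 1.10, aligned to GRCm38 with TopHat2 2.1.0 and Bowtie2 2.2.6, and counted per gene with HTSeq 0.6.1. What the authors deposited is 1 table of raw counts, without normalization, so that depth and composition had to be scaled. Columns of per-sample values left unmatched numbered 0. Total counts of 13549331 to 18982127 per library set the precision.

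Counts were tested with edgeR 4.0.16 in R 4.3.3: filterByExpr by group, TMM scaling, 1 mean per group over all 12 libraries and quasi-likelihood F tests, two-sided. P-values were adjusted by Benjamini-Hochberg over the 13608 genes tested, separately in each of 8 comparisons, and a call is an adjusted p under 0.05. The suffix comparison used group plus suffix. The standard error (SE) of a log2 fold change was derived from the F statistic. The fits were tested on simulated data. Alternatives were RLE scaling, DESeq2 1.42.0, no filter beyond 1 count, at least 10 counts in every library, a replicate block (label number and suffix), suffix as a term, suffix a alone and leaving out each library. Leaving out each library in the block fit was added after seeing the data.

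Labels that share number and suffix were taken as pairs of libraries across groups. After the group means were taken off, log2 levels correlated at 0.40 to 0.83 in all 18 pairs of the same label, over 12058 genes. These pairs lay at 0.40 to 0.686 in suffix a and at 0.636 to 0.83 in suffix b, where the number does not vary. Within suffix a the number therefore added little to the match. Libraries with the same suffix but another number correlated at 0.144 to 0.678 (12 pairs) and those of different suffix at -0.763 to -0.349 (24 pairs), so the pairing came mainly from the suffix. No libraries of a group agreed within sampling noise.

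The members and lists were chosen from general knowledge, with earlier results of these data known. The rule was to name all 10 members, Vegfa, and up to 4 called genes on each side of each list. Other names are said to be chosen after their values were seen. Gene coordinates are those of the deposited table (GRCm38), exon lengths and antisense overlap come from GENCODE M21, and promoter sequences from RefSeq (GRCm38.p6). Ero1a was matched through its RefSeq synonym Ero1l. Of the list of other HIF targets, 1 gene is counted but not reported here by name.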

Additional observations from a re-analysis of the deposited data

Results flagged for a closer look

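Within each suffix, the 10 genes were searched for a library far from the others, over 20 sets of 8 or 4 libraries that span the groups; chance alone gives about 1 such library in 20 sets. Kdm3a had a lone low library in both sets: 62.84 CPM in library 1 of N-VEGF cells without dox, the lowest of the 8 of suffix a, and 66.63 CPM in N-VEGF cells with dox, the lowest of the 4 of suffix b. Adm had 7.902 CPM in N-VEGF cells with dox, the lowest of the 4 of suffix b. Hilpda had 25.92 CPM in the same library, the highest of those 4.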

How the results depend on the processing

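Of 2123 alternative values of single genes, 2093 kept their direction and side of the threshold, where 210 changes of sign that stayed under 1 SE in values never called were taken as no change; DESeq2 values with no adjusted p (8 members for the dox effect by suffix, Car9 for dox in NLS-N-VEGF cells) were left out. The number of members called for the mean dox effect was 0 with group means. In fits that called 0.154% to 1.01% of all genes, namely DESeq2, no filter, suffix as a term, suffix a alone and the replicate block (-0.567), it was 1 (Adm). With the block and 1 library left out it was 0 to 2, the 2 being Adm and Ddit4, in fits that called 0.222% to 1.46% of all genes (1.24% where both were called). For dox in NLS-N-VEGF cells it was 0, and 1 (Adm) with suffix a alone (-0.836, 0.814% of all genes called) or with the block without library 2 of suffix b with dox (-0.768, 0.852% called). For the dox effect by suffix it ranged from 0 to 2 with 1 library left out, the 2 in a fit that called 16.01% of all genes. Of the comparisons with the block, it changed no other member's call.

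Signs changed in 3 values that were never called. Kdm3a in N-VEGF cells was 0.06 and became -0.052 with the block without library 1 of suffix a without dox. Hilpda between the populations given dox ranged from -0.191 to 0.039 and Adm by suffix from -0.199 to 0.053 with 1 library left out. The cause was not tested. The 3 to 30 counts of Car9 limit what could be seen for that gene.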

Other observations

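The binding partners and paralogues of the 10 genes, 29 of 35 of which passed the filter, were described by the same counts. In edgeR with group means, 0 of the 29 were called with dox in NLS-N-VEGF cells, in N-VEGF cells or in both, with 2, 0 and 1 at an unadjusted p under 0.05, and DESeq2 and the replicate block called none. Calcrl, the receptor of adrenomedullin, was noticed among the 29 after its values were seen. It was higher with dox in 6 of 6 pairs (log2 ratios 0.20 to 0.79, mean log2 fold change 0.45, SE 0.15). Its level was 3.03 to 6.11 CPM, and it was not called (edgeR adjusted p = 1). The share of all genes with 1 direction in 6 of 6 pairs was not counted. Adm was lower in 6 of 6, and a link between the 2 genes was not tested.

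By suffix, 12 of the 29 were called lower in suffix b and 5 called higher, beside 23.5% and 22.2% of all genes. By sign, called or not, 18 were lower and 11 higher. The lower ones included Jmjd1c (-0.54, SE 0.09), a paralogue of Kdm3a, Mxd3 (-0.39, SE 0.08), a relative of Mxi1, Sesn1 (-0.38, SE 0.06), which like Ddit4 restrains mTORC1, and Slc4a7 (-0.37, SE 0.09), a bicarbonate carrier. Those called higher included Ramp2 (0.87, SE 0.22), which joins Calcrl in the adrenomedullin receptor, and Gabarapl1 (0.29, SE 0.05), an autophagosome protein. Bcl2l1 (0.28, SE 0.07) and the mitophagy receptor Fundc1 (0.23, SE 0.08) were also among them. Thus Fundc1 was called in the opposite direction to Bnip3 and Bnip3l. Exons of other genes covered 33.4% of the exon bases of Ramp2 on the same strand and 28.3% of those of Gabarapl1 on the other strand.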
